A study of Mus musculus with 46 samples.

Results

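The laminins and nidogens measured here were 9 genes of the basement membrane, the thin sheet of extracellular matrix on which epithelial and endothelial cells rest. They were taken by name from the table of 53465 genes, without regard to their values, and all 9 were found. They comprise the 5 laminin alpha chains (Lama1, Lama2, Lama3, Lama4 and Lama5), the beta chain Lamb2, the gamma chain Lamc1 and the linker proteins nidogen 1 (Nid1) and nidogen 2 (Nid2). Their expression was followed in the cells sorted from mouse kidneys and across the surgeries these kidneys had undergone.

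RNA was sequenced from proximal tubular (PT) cells sorted on Lotus tetragonolobus lectin (LTL+), macrophages (F4/80+), endothelial cells (CD31+) and stromal cells (PDGFRB+) of the kidney. All mice were of WT genotype per the labels and, by the study's methods, were male C57BL/6 mice of 8 to 12 weeks. They underwent sham surgery, unilateral ureteric obstruction (UUO), or UUO followed by reversal through re-implantation of the ureter (rUUO), with rUUO mice culled 14 days after reversal. The methods give day 2 and day 7 for UUO, but the labels do not tell which day a UUO library belongs to, so that the UUO group may pool both. The values used came from 3 sham, 4 UUO and 3 rUUO libraries of PT cells, 4, 4 and 3 of macrophages, 4, 3 and 4 of endothelial cells, and 4 of each of stromal cells. The sorts enriched for a surface marker and did not remove all other cells, and the PDGFRB+ sort takes fibroblasts, pericytes, mesangial cells and vascular smooth muscle together.

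Values are FPKM, the fragments of a gene divided by its length and by the mapped fragments of the library, which may be compared between genes because they are per length. The FPKM of a library summed to between 586929 and 884982, and between 9502 and 14464 genes had at least 1 FPKM. The table holds no counts, so the absolute depth is unknown, and relative depth read from low values ran from 0.603 to 1.63 of the median. The 37 mitochondrial genes took 58.7 to 75.6% of the sum in PT libraries against 20.2 to 45.8% in the other sorts. The median of all PT genes tested was 0.51 higher in UUO than in sham on the log2 scale, and PT changes should be read against that shift. In every population the 6 markers of the sorted cell type were at 1 FPKM or more in every library.

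A laminin is a trimer of 1 alpha, 1 beta and 1 gamma chain that is joined inside the cell before it is secreted. Laminins assemble into a sheet at the cell surface, held there by integrins and dystroglycan, and nidogens bind the gamma 1 chain and the type IV collagen network. The alpha chain decides which receptors a laminin binds: alpha 5 is known from the mature tubular and glomerular basement membrane, alpha 4 from vessel walls, alpha 2 from muscle and mesangium, alpha 3 from epithelia anchored by hemidesmosomes, and alpha 1 from early epithelia and the proximal tubule. The beta 2 chain is known from the glomerular basement membrane, where its loss causes proteinuria.

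The stretch before the transcription start of 4 of the 9 genes was held in the RefSeq promoter set used here (build GRCm38.p6), those of Lama2, Lama5, Lamb2 and Nid1. The sequences of Nid1 and Lama2, which rose in stromal cells after UUO, and of Lama5, which fell there, are shown for the 250 bases before the start in that set, read in the direction of the gene. Capitals mark matches on either strand to the TATA box TATAAA, the CCAAT box, the GC box GGGCGG or the AP-1 motif TGANTCA, where N is any base.
Nid1, chr13:13437352-13437601, plus strand: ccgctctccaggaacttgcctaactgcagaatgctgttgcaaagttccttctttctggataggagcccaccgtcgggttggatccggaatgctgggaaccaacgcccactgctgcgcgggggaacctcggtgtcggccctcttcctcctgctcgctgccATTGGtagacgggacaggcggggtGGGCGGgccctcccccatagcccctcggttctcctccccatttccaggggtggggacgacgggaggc
Lama5, chr2:180225860-180226109, minus strand: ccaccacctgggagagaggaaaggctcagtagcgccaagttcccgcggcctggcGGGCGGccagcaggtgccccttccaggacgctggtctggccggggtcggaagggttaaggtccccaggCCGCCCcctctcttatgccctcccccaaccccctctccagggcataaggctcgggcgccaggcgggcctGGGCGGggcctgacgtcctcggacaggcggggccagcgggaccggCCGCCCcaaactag
Lama2, chr10:27616943-27617192, minus strand: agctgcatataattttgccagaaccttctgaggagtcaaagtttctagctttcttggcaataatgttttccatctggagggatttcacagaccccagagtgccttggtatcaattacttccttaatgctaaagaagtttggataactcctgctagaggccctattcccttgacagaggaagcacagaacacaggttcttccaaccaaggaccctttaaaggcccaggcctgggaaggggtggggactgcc
The Lama5 stretch held 4 GC boxes and was 72.4% G and C, and the Nid1 stretch held 1 GC box and 1 CCAAT box and was 64.4% G and C. The Lama2 stretch, at 47.2%, and the Lamb2 stretch, at 43.6%, held none of the motifs. Over the same 250 bases of all 32851 promoters in the set the median was 52.4%, and 32.7% held a GC box, 33.8% a CCAAT box, 12.4% a TATA box and 6.75% an AP-1 motif. The Lama2 stretch lies inside the gene as measured here, which starts at 27619758 on the minus strand, so it belongs to another start. Those of Nid1 and Lamb2 run past the starts of the measured genes, at 13437551 and 108479736. These matches describe letters only and were not tested as binding sites.

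In sham kidneys Nid1, Nid2, Lamb2, Lamc1 and Lama5 were highest in the stromal and endothelial sorts, while Lama3 was higher in PT than in stromal cells. Nid1 had the highest level of the 9 genes, with 181.1, 212, 333 and 172 FPKM in the 4 stromal sham libraries against 84.3, 93.6, 79.5 and 45.5 FPKM in endothelial cells. It stayed between 1.77 and 2.27 FPKM in PT cells and between 1.87 and 8.4 FPKM in macrophages. The groups followed the order stromal, endothelial, then macrophage and PT, and the stromal and endothelial libraries did not overlap.

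Lamb2 and Lamc1 were shared by the stromal and endothelial sorts at a similar level. Lamb2 had 148 ± 55.8 FPKM (SD, n = 4) in endothelial and 144 ± 26.9 FPKM (SD, n = 4) in stromal cells, whereas PT sham libraries had 0.74, 1.23 and 5.76 FPKM. Lamc1, the gamma chain of most laminins, had 70.8 ± 20.7 FPKM (SD, n = 4) in endothelial and 55.9 ± 19.05 FPKM (SD, n = 4) in stromal cells. It was the highest of the 9 genes in macrophages, with 15.5, 12.02, 20.9 and 9.02 FPKM, while Lamb2, Nid1 and Nid2 ran from 1.16 to 9.52 FPKM there. Nid2 had 25.5 ± 10.6 FPKM in endothelial and 20.9 ± 6.19 FPKM in stromal cells (SD, n = 4 each). The log2 difference of endothelial minus stromal sham cells was -0.05 ± 0.44 (SE) for Lamb2, 0.34 ± 0.28 for Lamc1, 0.24 ± 0.36 for Nid2 and 0.41 ± 0.38 for Lama5, and none passed the test, which does not show that the levels were equal.

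Of the alpha chains, Lama2, Lama3 and Lama4 differed between endothelial and stromal sham cells, where no difference passed for the shared chains Lamb2 and Lamc1. Lama2 was at 17.7, 21.9, 25.8 and 15.4 FPKM in stromal sham libraries and at no more than 1.44 FPKM in any other sham library. Lama4 was higher in endothelial cells, at 23.3, 20.9, 26.1 and 16.7 FPKM, than in stromal cells, at 4.56, 12.01, 10.2 and 3.75 FPKM. Lama3 led in endothelial cells at 7.92 ± 3.14 FPKM (SD, n = 4) and in PT cells at 4.93 ± 1.33 FPKM (SD, n = 3), a difference of -0.54 ± 0.34 (PT minus endothelial, SE) that did not pass and that took the other sign, 0.60, with quantile normalization. Lama5 was at 16.3 ± 5.23 FPKM in endothelial and 12.1 ± 4.52 FPKM in stromal cells (SD, n = 4 each), and at 5.53, 0.9 and 1.14 FPKM in PT cells. Lama1 did not exceed 3.17 FPKM in any sham library.

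Of the 54 pairs of populations and genes in sham kidneys, 48 could be tested and 36 passed, at a threshold of 0.05 for p-values of limma, computed on log2(FPKM + 1) and Benjamini-Hochberg adjusted over all genes. Lama1 had too low a mean to be tested. A gene that is high in 1 population, as Lama2 is in stromal cells, entered this fit through it, so that the counts and the p-values of such genes are a description. The 8 tested genes passed in 4 cases for PT against macrophage, 6 for PT against endothelial, 8 for PT against stromal, 7 each for macrophage against endothelial and macrophage against stromal, and 4 for endothelial against stromal. Nid1 was among the 4 between PT cells and macrophages, at -0.81 ± 0.34, but that call was lost in 11 of 15 fits that left out a library, and the difference was 0.28 with quantile normalization. The percentages of all genes that passed in these pairs were 64.9, 62.3, 67.6, 45.7, 48.1 and 24.2%, respectively. Quantile normalization also ended the limma calls of Lama5 for PT against stromal (adjusted p = 0.0897) and Lamc1 for PT against macrophage (adjusted p = 0.0502). That of Lama5 for PT against macrophage was lost without PT sham replicate 1 (adjusted p = 0.218). The 4 that separated endothelial from stromal cells were Lama2, Lama3, Lama4 and Nid1. The log2 difference was -3.60 ± 0.30 (SE, adjusted p = 6.03e-08) for Lama2 and -1.55 ± 0.31 (adjusted p = 0.00113) for Nid1, both lower in endothelial cells. It was 1.79 ± 0.32 (adjusted p = 0.000319) for Lama3 and 1.52 ± 0.32 (adjusted p = 0.00159) for Lama4, both higher in endothelial cells. Sorted cells of a bulk library carry some RNA of other cells, and the 4 podocyte markers summed to 262 to 577 FPKM in endothelial and 80.0 to 161 FPKM in stromal sham libraries, against 1.88 to 6.22 FPKM in PT cells. Podxl made up most of this in the endothelial sort and is also made by endothelial cells themselves. The 6 markers of distal nephron and collecting duct summed to 169 to 860 FPKM in endothelial and 373 to 566 FPKM in stromal sham libraries. They summed to 30.5 to 45.9 FPKM in PT cells and 62.1 to 104 FPKM in macrophages. The part of podocyte and distal nephron RNA in the Lama3, Lama5 and Lamb2 levels was not tested.

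**Figure D1:**
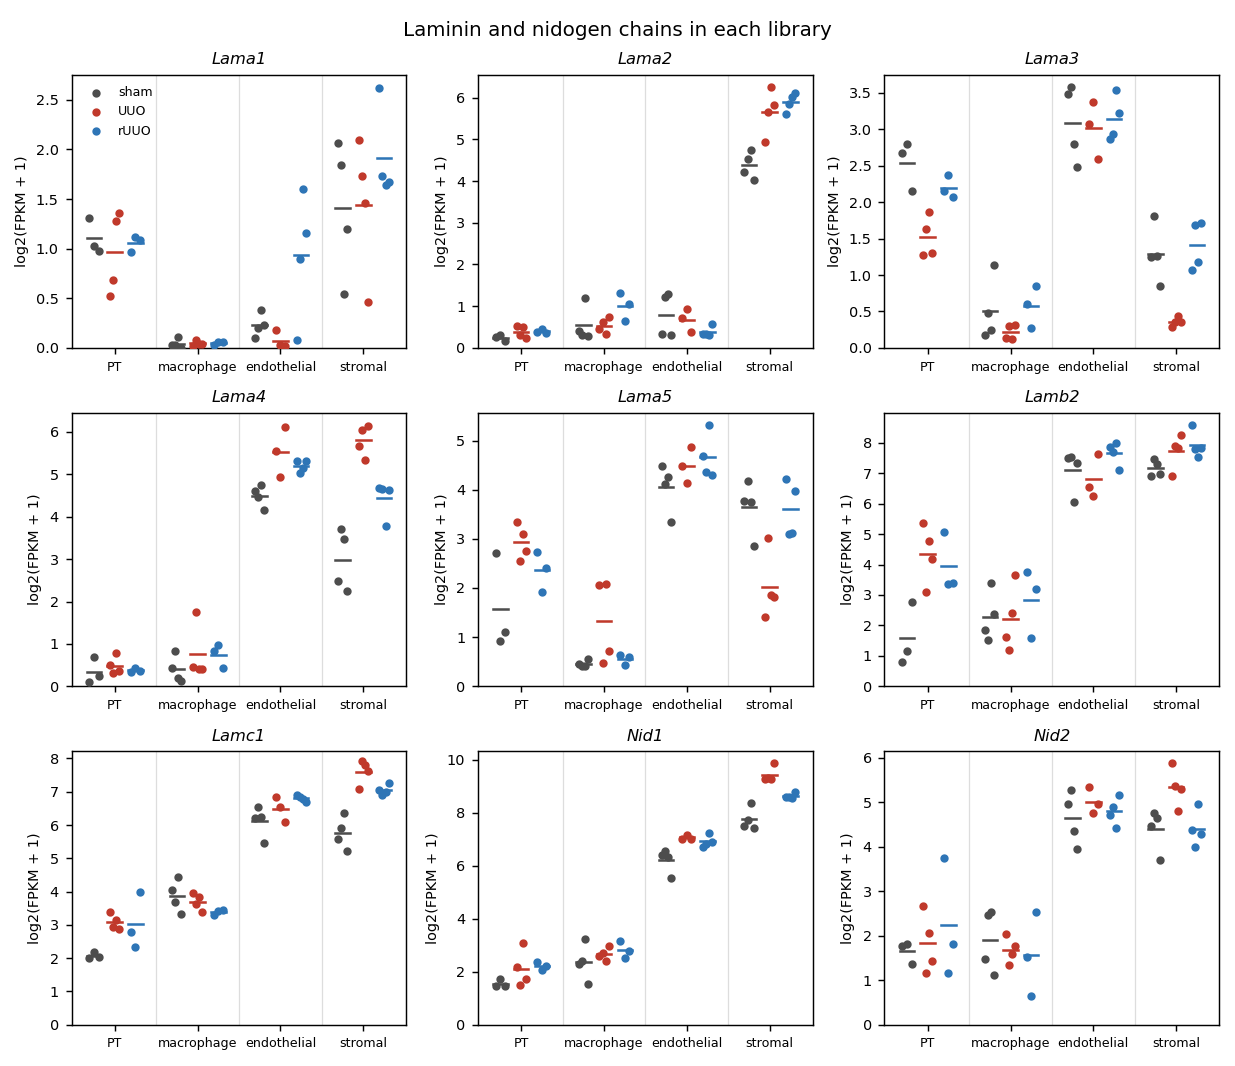
Level of each laminin and nidogen gene as log2(FPKM + 1) in every library, by sorted population and surgery (points, libraries; bars, group means; each panel has its own axis from 0). Nid1 in stromal cells reaches 950 FPKM in 1 UUO library, and Lama2 lies above 15 FPKM in every stromal library and below 2 FPKM in every other.

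UUO changed 6 of the 9 genes in stromal cells, raising 5 of them and lowering 1. Lama4, Lamc1, Nid1, Lama2 and Nid2 rose and Lama5 fell, while Lama1, Lama3 and Lamb2 did not pass the test. Among all 14033 genes tested 26.4% passed, 13.4% as higher and 13% as lower, and the median change was -0.07 on the log2 scale against 0.94 over the 9 genes. In bulk libraries fewer cells of a type and less RNA per cell cannot be told apart, and the same holds for a rise.

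Lama4, the alpha chain of vessel walls and mesenchyme, moved most. It was at 4.56, 12.01, 10.2 and 3.75 FPKM in sham and at 50.3, 65.1, 39.6 and 69.9 FPKM in UUO, a log2 change of 2.83 ± 0.33 (SE, adjusted p = 1.3e-05). The sham and UUO libraries did not overlap.

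Lamc1 was at 46.9, 59.1, 80.9 and 36.6 FPKM in sham and at 133, 240, 220 and 197.5 FPKM in UUO. Its log2 change was 1.83 ± 0.23 (adjusted p = 2.87e-05). Nid1, which binds the Lamc1 product, went from 181.1, 212, 333 and 172 FPKM to 622, 627, 616 and 950 FPKM, a log2 change of 1.67 ± 0.20 (adjusted p = 1.92e-05). Neither gene overlapped between sham and UUO, and 1 UUO library stood well above the other 3 for Nid1.

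Lama2, the chain of muscle and mesangial laminin, rose from 20.2 ± 4.64 to 52.4 ± 18.8 FPKM (SD, n = 4 each; log2 change 1.28 ± 0.26, adjusted p = 0.00156). Its UUO libraries, at 29.4, 49.5, 75.0 and 55.7 FPKM, were spread over a wider range than those of sham. Nid2, the second nidogen, was at 21.2, 26.1, 24.1 and 12.1 FPKM in sham and at 58.0, 40.4, 26.8 and 38.6 FPKM in UUO (log2 change 0.94 ± 0.29, adjusted p = 0.0242). The lowest UUO value of Nid2 was less than 1 FPKM above the highest sham value, and without stromal sham replicate 4 or stromal UUO replicate 1 its adjusted p rose to as much as 0.0821. In the annotation 437 exonic bases of Nid2 are shared with Rtraf on the other strand, and a library that does not mark strand cannot divide reads there.

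Lama5, the chain of mature tubular and glomerular basement membrane, moved the other way. It was at 12.7, 17.2, 12.4 and 6.19 FPKM in stromal sham libraries and at 1.66, 7.09, 2.63 and 2.5 FPKM in UUO, a log2 change of -1.61 ± 0.39 (adjusted p = 0.00648). A single UUO library, at 7.09 FPKM, reached into the sham range. Lama3 was lower in all 4 UUO libraries, at 0.22 to 0.35 FPKM against 0.81 to 2.49 FPKM, but missed the threshold (log2 change -0.93 ± 0.34, adjusted p = 0.0527), which it passed under 4 of the alternative settings. Its mean was 0.28 FPKM in UUO, 1.52 FPKM in sham and 1.72 FPKM in rUUO. Lama3 thus entered the stromal fit through sham and rUUO, and its tests against UUO there are a description. Lamb2, the partner chain in these trimers, was at 119, 174, 158 and 123 FPKM in sham and at 118, 237.5, 225 and 305 FPKM in UUO, which overlapped (log2 change 0.56 ± 0.27, adjusted p = 0.145).

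Markers of several cell types moved in the same stromal libraries. The 6 stromal markers summed to 870 to 2238 FPKM in sham and 6003 to 10038 FPKM in UUO, with Col1a1 at 174 ± 121 and 2513 ± 762 FPKM (SD, n = 4 each), while Pdgfrb itself was at 212 ± 43.5 and 117 ± 38.9 FPKM. The 4 smooth muscle markers summed to 105 to 456 and 364 to 854 FPKM. Podocyte markers summed to 80.0 to 161 FPKM in sham and 17.4 to 26.0 FPKM in UUO, and the 6 markers of distal nephron and collecting duct to 373 to 566 and 32.0 to 65.8 FPKM. None of these epithelial markers was at 0 in any library. Their part in the fall of Lama5 and the values of Lama3 was not tested.

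After reversal Lama4 and Nid1 lay between sham and UUO in stromal cells, Lama5 and Nid2 overlapped sham, and Lama2 and Lamc1 stayed above every sham library. Lama4 was at 24.8, 24.1, 12.9 and 23.9 FPKM in rUUO, below every UUO library (log2 change -1.36 ± 0.33, adjusted p = 0.0334) and above every sham library (1.47 ± 0.33, adjusted p = 0.00571). Nid1 was at 381, 383, 372 and 443 FPKM, below every UUO library and above every sham library (-0.81 ± 0.20 against UUO, adjusted p = 0.0385; 0.86 ± 0.20 against sham, adjusted p = 0.00776). Against sham, the Nid1 difference was 0.39 with quantile normalization and lost its call (adjusted p = 0.187). Lama5 was at 17.7, 7.57, 7.65 and 14.7 FPKM, above every UUO library (1.58 ± 0.39, adjusted p = 0.0378) and overlapping those of sham.

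The Lama2 libraries of rUUO overlapped those of UUO. They were at 47.5, 56.7, 63.9 and 68.6 FPKM, all above those of sham (log2 change 1.52 ± 0.26, adjusted p = 0.000618), and the change from UUO was 0.23 ± 0.26 and did not pass the test. Lamc1 was at 132, 118, 126 and 154 FPKM, above sham in every library (1.28 ± 0.23, adjusted p = 0.00111), with a change from UUO of -0.55 ± 0.23 (adjusted p = 0.204). Nid2 was at 19.9, 14.9, 30.3 and 18.7 FPKM, overlapping sham, and its change from UUO was -0.93 ± 0.29 (adjusted p = 0.0854). Lamb2 was at 384, 220, 185 and 227 FPKM, above every sham library, with a log2 change of 0.78 ± 0.27 that missed the threshold (adjusted p = 0.0628).

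In counts, 3 of the 9 genes passed between rUUO and UUO, 1 higher and 2 lower, where 4.17% of all genes passed, 2.95% as higher and 1.22% as lower. Between rUUO and sham 4 passed, all higher, where 17.2% of all genes passed and 11.6% as higher. The rUUO against UUO calls were the less stable. All 3 were lost with no filter on low values (adjusted p = 0.108 for Lama4, 0.115 for Lama5 and 0.122 for Nid1) and with the replicate block (adjusted p = 0.0958, 0.138 and 0.147), and Lama5 and Nid1 with quantile normalization (adjusted p = 0.0761 and 0.0855). With single libraries left out 0 to 3 genes passed. Leaving out stromal UUO replicate 1 or 4 or stromal rUUO replicate 1, 2 or 6 ended the calls of Lama4, Lama5 and Nid1 alike. Distal nephron markers in rUUO stromal libraries summed to 57.1 to 121 FPKM, podocyte markers to 53.0 to 95.3 FPKM and stromal markers to 4947 to 6112 FPKM, each between the means of UUO and sham.

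**Figure D2:**
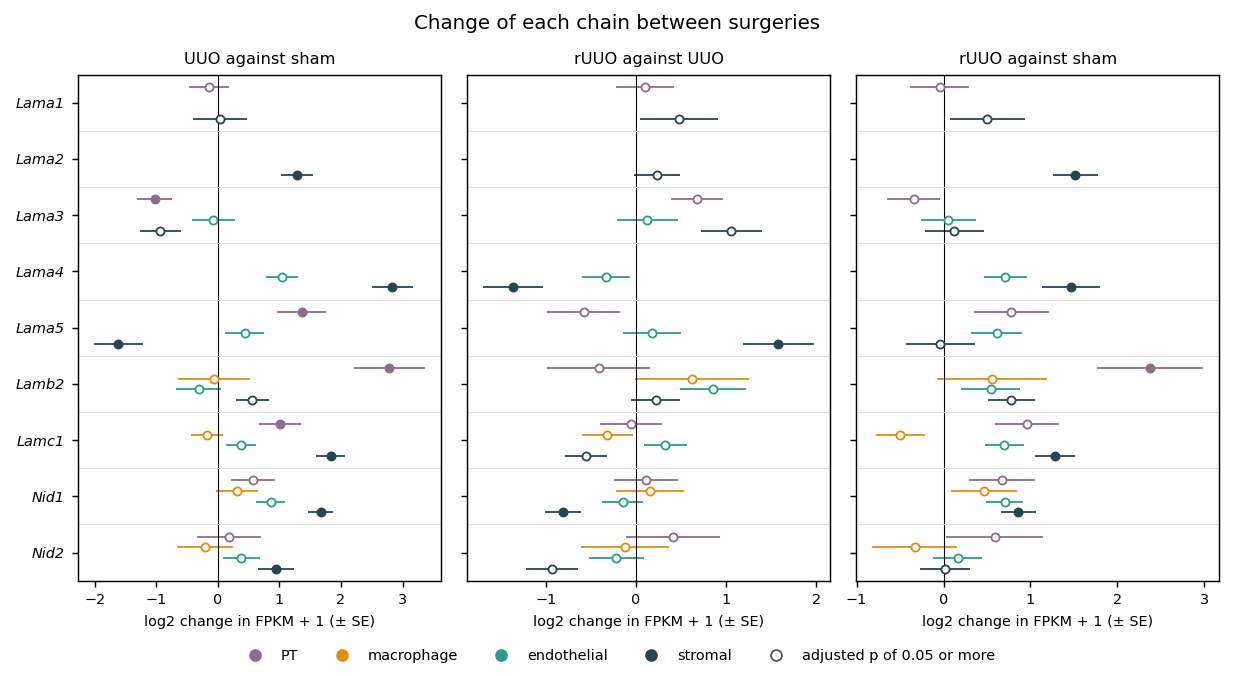
Log2 change of each gene in FPKM + 1 between surgeries, with its SE, by sorted population (filled points passed at an adjusted p under 0.05, open points did not; genes with a mean under 1 FPKM in a population are not shown). In stromal cells Lama4 lies at 2.83 and Lama5 at -1.61 for UUO against sham, and they lie at -1.36 and 1.58 for rUUO against UUO.

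The make-up of the alpha chains was therefore described within each library, where the scaling of the library drops out. In stromal sham cells Lama2 took 47.8 ± 7.46% of the summed alpha chain FPKM, Lama5 27.5 ± 4.59% and Lama4 16.7 ± 4.82% (SD, n = 4). In UUO Lama4 took 49.8 ± 11.4%, Lama2 45.1 ± 12.3% and Lama5 2.95 ± 1.84%. In rUUO the shares were 61.1 ± 9.55% for Lama2, 21.9 ± 5.29% for Lama4 and 12.1 ± 4.75% for Lama5. Lama2 kept a large share throughout, while the Lama4 share was higher and the Lama5 share lower in every UUO library than in every sham library.

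The log2 ratio of Lama5 to Lama4, each with 1 FPKM added, was 0.66 ± 0.45 in stromal sham, -3.78 ± 0.63 in UUO and -0.84 ± 0.48 in rUUO (SD, n = 4 each). None of the 3 groups overlapped another. Each of the 3 comparisons gave p = 0.0286 in a two-sided exact permutation test, the smallest that 4 against 4 libraries allow, and the value adjusted over the 3 comparisons was also 0.0286. In the other populations no comparison passed. Of those 9 comparisons, only UUO against sham in macrophages and rUUO against sham in endothelial cells had 4 libraries on each side, and the others could not fall below 0.0571, or 0.1 for rUUO against sham in PT cells. In endothelial cells the mean ratio was -0.44 over 4 sham libraries, with an SD of 0.29. It was -1.05 over 3 UUO libraries (SD 0.23) and -0.54 over 4 rUUO libraries (SD 0.50).

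The log2 ratio of Nid1 to Lamc1 moved little although both genes did. It was 2.00 ± 0.16 in stromal sham, 1.83 ± 0.47 in UUO and 1.57 ± 0.08 in rUUO (SD, n = 4 each). The rUUO libraries lay below every sham library (difference -0.42, exact permutation p = 0.0286, adjusted over 3 comparisons p = 0.0857). None of the 12 comparisons of this ratio passed after adjustment. Mean ratios in every surgery were above 1.5 in stromal cells, between 0 and 1 in endothelial cells and below 0 in PT cells and macrophages.

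**Figure D3:**
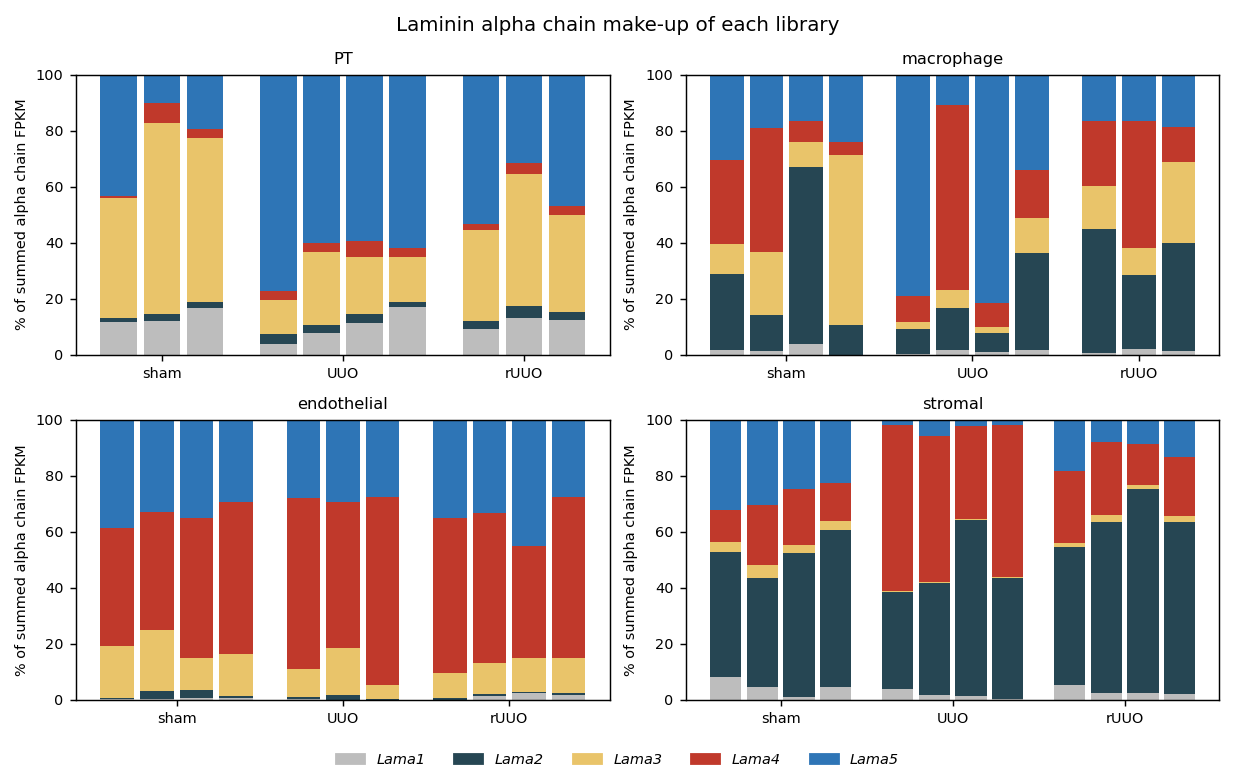
Share of each laminin alpha chain in the summed alpha chain FPKM of every library, in percent, 1 bar per library (each bar adds up to 100%). In stromal cells Lama5 takes 22.6 to 32.1% in sham libraries and 1.94 to 5.7% in UUO libraries.

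**Figure D4:**
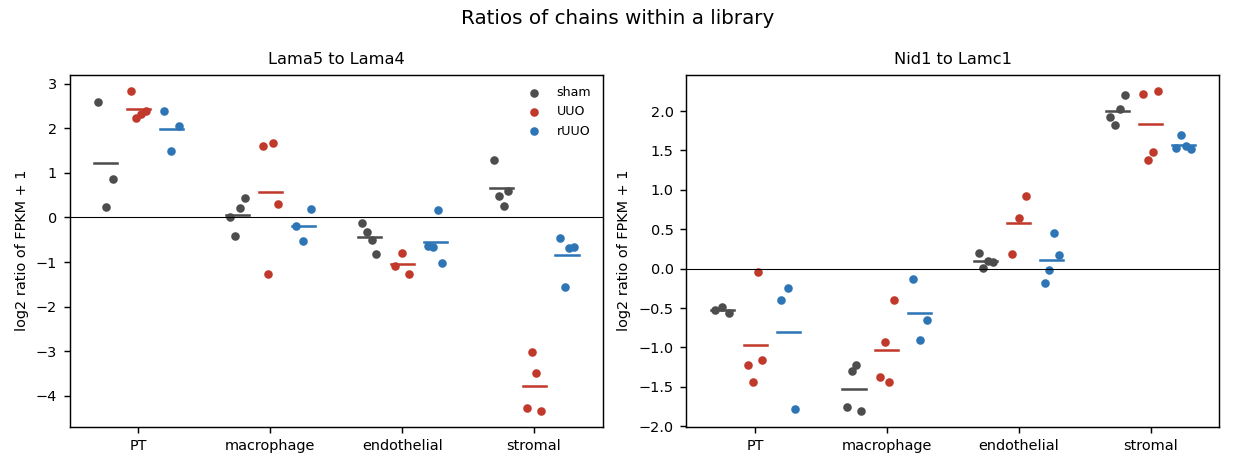
Log2 ratio of Lama5 to Lama4 (left) and of Nid1 to Lamc1 (right), each with 1 FPKM added, in every library by population and surgery (points, libraries; bars, group means). The 3 stromal groups are separate for Lama5 to Lama4, while Nid1 to Lamc1 stays between 1.38 and 2.26 in all stromal libraries.

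In PT cells Lamb2, Lama5 and Lamc1 rose and Lama3 fell in UUO, out of 7 genes that reached a mean of 1 FPKM, with Lama2 and Lama4 below it. Among all 11416 genes tested in PT cells 32.8% passed, 27.9% as higher and 4.91% as lower. The median change of the 7 genes was 0.57, close to the 0.51 of all genes. The 6 PT markers summed to 1824 to 2457 FPKM in sham, 484 to 672 FPKM in UUO and 1125 to 1381 FPKM in rUUO PT libraries, without overlap, and the distal nephron markers to 30.5 to 45.9, 170 to 230 and 63.7 to 184 FPKM. Their part in the changes of the 4 genes was not tested.

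Lamb2 was low in sham PT cells, at 0.74, 1.23 and 5.76 FPKM, and was at 40.3, 7.62, 26.5 and 17.0 FPKM in UUO and 32.9, 9.29 and 9.45 FPKM in rUUO. Neither UUO nor rUUO overlapped sham. The log2 change was 2.78 ± 0.57 (adjusted p = 0.00227) for UUO and 2.37 ± 0.61 (adjusted p = 0.0299) for rUUO. The call in rUUO was lost without PT sham replicate 1 or 2 or PT rUUO replicate 2 and with quantile normalization (log2 change 2.02, adjusted p = 0.0776). The smooth muscle markers moved alongside, summing to 1.57 to 3.75 FPKM in sham, 7.93 to 19.9 FPKM in UUO and 16.8 to 23.8 FPKM in rUUO PT libraries. Stromal markers there summed to 15.8 to 21.5, 19.1 to 42.65 and 21.3 to 29.4 FPKM in the same order. Endothelial markers summed to 10.3 to 17.9, 12.2 to 32.3 and 17.3 to 25.4 FPKM. The part of these other cells in the Lamb2 values was not tested.

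Lama3, a chain of epithelial laminins, fell from 5.41, 5.95 and 3.43 FPKM in sham to 1.42, 2.1, 2.63 and 1.47 FPKM in UUO (log2 change -1.02 ± 0.29, adjusted p = 0.0147). The groups did not overlap, and the fall ran against the upward shift of PT genes and alongside the lower PT markers. Without PT sham replicate 1 or 2 the adjusted p was as high as 0.0592. In rUUO it was at 3.43, 4.19 and 3.2 FPKM, above every UUO library, with a change of 0.68 ± 0.29 that did not pass (adjusted p = 0.189).

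Lama5 was at 5.53, 0.9 and 1.14 FPKM in PT sham and at 9.17, 4.82, 7.62 and 5.72 FPKM in UUO (log2 change 1.36 ± 0.41, adjusted p = 0.0201), with 1 sham library inside the UUO range. Lamc1 was at 2.98, 3.58 and 3.11 FPKM in sham and at 9.47, 6.58, 7.84 and 6.39 FPKM in UUO (1.01 ± 0.34, adjusted p = 0.0368). Quantile normalization, which takes out the shift of PT genes, left changes of 0.74 (adjusted p = 0.201) and 0.41 (adjusted p = 0.435), and neither passed. The Lama5 call was also lost without PT sham replicate 2 or 4 or PT UUO replicate 1, and that of Lamc1 without any single sham library or PT UUO replicate 1 or 3. Over all leave-one-out fits 1 to 4 genes passed.

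Nid1 and Nid2 stayed low in PT cells, at 1.77 to 7.55 and 1.23 to 12.5 FPKM over the 10 libraries, and neither passed in any comparison. Between rUUO and UUO none of the 7 genes passed by limma and 1 had an unadjusted p under 0.05 (Lama3), where 3.83% of all genes passed. Between rUUO and sham only Lamb2 passed, where 7.46% of all genes passed and 6.52% as higher. Lamc1 in rUUO was at 5.85, 4.03 and 15.0 FPKM, above every sham library, with a change of 0.96 ± 0.37 (adjusted p = 0.14).

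In PT cells the make-up of the alpha chains ran from Lama3 towards Lama5. As a share of the summed alpha chain FPKM, Lama3 was at 56.5 ± 12.9% over the 3 sham libraries, 18.7 ± 6.15% over the 4 UUO libraries and 38.0 ± 7.91% over the 3 rUUO libraries (mean ± SD). Lama5 took 24.5 ± 17.2, 64.7 ± 8.38 and 43.9 ± 11.2%. The Lama3 shares of sham and UUO did not overlap.

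In endothelial cells none of the 7 tested genes passed in any comparison by limma, where 1.98% of all genes passed between UUO and sham, 0.0597% between rUUO and UUO and 1.77% between rUUO and sham. At an unadjusted p under 0.05 there were 2, 1 and 3 genes. Lama4, the main alpha chain of these cells, was at 23.3, 20.9, 26.1 and 16.7 FPKM in sham, 46.1, 29.6 and 68.5 FPKM in UUO and 39.1, 31.6, 34.6 and 38.8 FPKM in rUUO. Every UUO and rUUO library lay above every sham library, with log2 changes of 1.05 ± 0.26 (adjusted p = 0.0531) and 0.71 ± 0.24 (adjusted p = 0.181). Without endothelial UUO replicate 2 the UUO change was 1.35 and passed (adjusted p = 0.0175).

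Nid1 followed the same pattern in endothelial cells, at 84.3, 93.6, 79.5 and 45.5 FPKM in sham, 128, 143 and 129 FPKM in UUO and 105, 113, 151 and 117 FPKM in rUUO. Its changes against sham were 0.86 ± 0.23 (adjusted p = 0.0742) and 0.71 ± 0.21 (adjusted p = 0.124). Lamc1 was at 73.5, 92.8, 74.0 and 42.8 FPKM in sham and 119, 114, 110 and 103 FPKM in rUUO, without overlap (0.70 ± 0.22, adjusted p = 0.15). Lamb2 was at 91.6, 74.9 and 197.5 FPKM in UUO and 229, 204, 256 and 136 FPKM in rUUO (0.85 ± 0.37, adjusted p = 0.451), and smooth muscle markers were at 27.2 to 69.1 and 76.9 to 137 FPKM in the same libraries. Lama3, Lama5 and Nid2 overlapped between all 3 surgeries.

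In macrophages Lamb2, Lamc1, Nid1 and Nid2 reached a mean of 1 FPKM and none passed in any comparison, nor had any an unadjusted p under 0.05. Among all genes 4.99% passed between UUO and sham, 0% between rUUO and UUO, where limma gave 945 of 13332 genes at an unadjusted p under 0.05, and 3.44% between rUUO and sham. Lamc1 was at 15.5, 12.02, 20.9 and 9.02 FPKM in sham, 14.6, 11.5, 13.2 and 9.38 FPKM in UUO and 8.76, 9.76 and 9.88 FPKM in rUUO. Lama5 was at 3.19 and 3.21 FPKM in 2 of the 4 UUO libraries and at 0.65 FPKM or less in every other macrophage library. Stromal markers summed to 10.9 to 68.2 FPKM over the macrophage libraries.

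Whether the genes changed differently between populations was tested by the interaction of surgery and population in a single limma fit of all 44 libraries. Genes below 1 FPKM in a population can enter that fit through the others, and log2(FPKM + 1) flattens their changes there. For UUO against sham 11 differences passed for genes with a mean of 1 FPKM or more in both populations, 8 of them between stromal cells and another population. They were 2 for PT minus macrophage, 1 for PT minus endothelial, 3 each for PT minus stromal and endothelial minus stromal, 2 for macrophage minus stromal and 0 for macrophage minus endothelial. Among all 14332 genes, at any level, 15.5, 11.1, 29.2, 13.1, 16.2 and 2.31% passed in these pairs, in the same order. At any level, as for these shares, 17 of 48 tested differences of the laminins and nidogens passed, 2, 1, 5, 4, 5 and 0 in that order. Of these 17, 6 rest on a population with a mean under 1 FPKM, those of Lama2 against the other 3 populations, of Lama4 against PT cells and macrophages and of Lama5 against macrophages, and are not read as differences between changes. For Lama5 the stromal fall differed from the endothelial change by 2.05 ± 0.57 (adjusted p = 0.0115), and for Lama4 the stromal rise exceeded the endothelial one, with a difference of -1.78 ± 0.44 (endothelial minus stromal, adjusted p = 0.00454), which was lost with a pseudocount of 0.1 (adjusted p = 0.0839). The rise of Lamb2 in PT cells differed from the change in each of the others, by 2.22 ± 0.76 (adjusted p = 0.0248) against stromal cells. That last difference was lost without PT sham replicate 1 or 2, PT UUO replicate 1 or stromal UUO replicate 1, with an adjusted p of up to 0.0921. The Lamb2 difference from macrophages was lost with quantile normalization (adjusted p = 0.0574).

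For rUUO against UUO 2 differences passed, both for Lama5. The difference was -2.16 ± 0.57 (adjusted p = 0.0154) for PT minus stromal cells, and it was lost with quantile normalization (adjusted p = 0.0847) and with the replicate block (adjusted p = 0.115). It was -2.35 ± 0.57 (adjusted p = 0.0264) for macrophage minus stromal cells and was lost without mitochondrial genes (adjusted p = 0.0517), and it rests on a mean of 0.944 FPKM in macrophages, too low to be tested there alone. The percentages of all genes were 0.781% for PT minus macrophage, 2.09% for PT minus endothelial, 7.43% for PT minus stromal, 0.154% for macrophage minus endothelial, 1.17% for macrophage minus stromal and 0.963% for endothelial minus stromal. The first was lost without PT rUUO replicate 3, and the second without any one of 7 libraries, among them macrophage UUO replicates 1 and 3, which hold the Lama5 values of 3.19 and 3.21 FPKM.

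Among the other laminin chains, Lamb1, the other widespread beta chain, rose in stromal UUO cells from 35.1 ± 9.02 to 55.8 ± 7.91 FPKM (SD, n = 4 each; log2 change 0.68 ± 0.21, SE, adjusted p = 0.0219). Lamc3 was a stromal transcript, at 4.89 to 9.63 FPKM in sham, 0.47 to 6.32 FPKM in UUO and 1.35 to 3.99 FPKM in rUUO, and did not pass. Lamb3 stayed at or below 1.94 FPKM in all libraries.

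Of 21 other basement membrane proteins, 20 were tested in stromal cells, and 9 rose and 6 fell in UUO. Of all genes 13.4% rose and 13% fell there. The largest changes were those of Tinagl1, a matrix protein of the tubulointerstitial nephritis antigen family (147 to 11.1 FPKM, log2 change -3.58 ± 0.30, adjusted p = 6.54e-07), and of Col15a1, a collagen that links basement membranes to the interstitium (60.1 to 484 FPKM, 3.07 ± 0.30, adjusted p = 2.23e-06). Their levels in rUUO, 12.6 and 500 FPKM, were near those of UUO. Against sham 9 of the 20 were higher and 3 lower, where 17.2% of all genes passed and 11.6% as higher. Between rUUO and UUO 7 rose and 1 fell, where 2.95% of all genes rose and 1.22% fell. Col4a3 (2.18 ± 0.36, adjusted p = 0.00419) and Npnt (1.71 ± 0.33, adjusted p = 0.0106) led. Col4a3 encodes a type IV collagen chain of the glomerular basement membrane, and like Lama5 it had been lower in UUO, at 3.9 against 14.3 FPKM in sham.

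In PT cells 16 of the 21 were tested, and 8 rose and 1 fell in UUO, where 27.9% of all genes rose and 4.91% fell. Tinagl1 (1.48 to 24.5 FPKM, 3.32 ± 0.34, adjusted p = 6.74e-06) and Col18a1 (3.98 to 25.1 FPKM, 2.38 ± 0.22, adjusted p = 2.62e-06) changed most, so that Tinagl1 moved in opposite directions in PT and stromal cells. Against sham 4 were higher in rUUO, led by Col18a1 (1.84 ± 0.24) and Tinagl1 (1.81 ± 0.37), where 6.52% of all genes were higher. Between rUUO and UUO only Tinagl1 fell, where 3.83% of all genes passed. In endothelial cells 15 were tested. There Col4a2 (51.7 to 146 FPKM, 1.47 ± 0.20, adjusted p = 0.000914), Col4a1 (1.43 ± 0.21, adjusted p = 0.00168) and Sparc rose in UUO and Tinagl1 fell. Col4a1 and Col4a2 were also higher in rUUO than in sham. Of all endothelial genes 1.98% passed between UUO and sham and 1.77% between rUUO and sham. None of the 12 tested in macrophages passed, where the shares of all genes were 4.99% and 3.44% in these comparisons.

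Of the laminin receptors, in PT cells 5 of 6 tested rose in UUO, led by Bcam, a receptor for laminin alpha 5 (2.03 to 45.2 FPKM, 3.87 ± 0.28, adjusted p = 2.09e-07), and Itgb4, the beta 4 integrin of hemidesmosomes (0.127 to 5.11 FPKM, 2.43 ± 0.32, adjusted p = 7.6e-05), where 27.9% of all genes rose. Itgb4 was under 1 FPKM in PT sham and entered the PT fit through the other libraries, so its changes against sham are a description. In stromal cells 3 of 7 fell in UUO and 4 did not pass, Bcam (164 to 13.1 FPKM, -3.54 ± 0.19, adjusted p = 2.41e-08), Itga3 (63.7 to 11.8 FPKM, -2.47 ± 0.32, adjusted p = 3.21e-05) and Dag1, which encodes dystroglycan, where 13% of all genes fell. Between rUUO and UUO the same 3 rose, where 2.95% of all genes rose. Bcam was back to 52.6 FPKM (1.93 ± 0.19, adjusted p = 0.000146) and Itga3 to 31.0 FPKM (1.45 ± 0.32, adjusted p = 0.021). Against sham, Bcam and Itga3 were still lower in stromal rUUO cells, where 17.2% of all genes passed. In PT rUUO cells 3 of 6 receptors were higher, where 6.52% of all genes were, Bcam (3.37 ± 0.30) and Itgb4 (1.84 ± 0.35) by most. In endothelial cells and macrophages none of the 6 and 5 tested passed. The epithelial markers given above moved with the stromal Bcam and Itga3 values, and the distal nephron and PT markers with those of Bcam and Itgb4 in PT cells. Their part was not tested.

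The genes most like each chain were found over the 44 libraries among 14332 genes, by Pearson's r of log2(FPKM + 1), as a description in which the 4 populations supply most of the variation. Lama2 was most like Fbln1 (r = 0.989) and Mrc2 (0.986), and Nid1 most like Sparc (0.987) and Fam198b (0.984). Lama4 was most like Lrrc32 (0.967) and Nxn (0.962), and Lamc1 most like Mxra7 (0.964) and Sparc (0.959). Lamb2 was most like Pls3 (0.955) and Akap12 (0.945), and Nid2 most like Ehd2 (0.931) and Tmtc1 (0.930). Lama3 was nearest to Aqp1 (0.924) and Card10 (0.917), and Lama5 to Hbegf (0.910) and Yes1 (0.909). Lama1 had a mean under 1 FPKM and was left out.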

How the data were processed

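Proximal tubular cells, macrophages, endothelial and stromal cells were sorted from mouse kidneys by FACS, and libraries for sequencing were made from their RNA by Ovation amplification. The authors deposited FPKM values for 53465 genes on GRCm38 (mm10), rounded to 2 decimals. Their processing notes name FastQC, Bowtie2, RSEM and DESeq2, without versions. Of 46 value columns 44 were used. The other 2 share 1 name, that of an endothelial UUO sample, and could not be assigned, and no column carried the name of the third PT sham sample, so 3 PT sham libraries were used. One PT library has SHAM and UUO in its title and entered the UUO group because of its treatment label. All 44 columns differ from each other. The labels do not give the day of a UUO library. Mice are not named in the labels, so replicates were taken as separate mice from the series design, and p-values measure the spread between these libraries.

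Genes that averaged 1 FPKM or more across the libraries of a fit were tested on log2(FPKM + 1) with limma (lmFit, then eBayes with trend), so that changes of low genes are understated. Each population had its own fit for the surgeries, sham libraries were fitted together for differences between populations, and all 44 libraries for interactions. P-values were Benjamini-Hochberg adjusted over all genes at a threshold of 0.05. Ratios were compared by two-sided exact permutation tests, adjusted over the 3 comparisons of a population. The fit for UUO against sham was tested on simulated data with known log2 changes. Of genes changed by 1 it found 21% in PT cells, 39% in macrophages, 19% in endothelial and 31% in stromal cells. Of genes changed by 2 it found 83, 80, 75 and 86%, in that order. A gene that did not pass may therefore still have changed. Tests were repeated with 0.1 in place of 1 as pseudocount, without the filter, with FPKM brought to a common sum (TPM) or rescaled without mitochondrial genes, with quantile normalization, in 1 fit of all populations, with a block for the replicate number, and without each library in turn. Same-numbered libraries of different surgeries did not deviate together (correlations across genes of -0.06 to 0.12), so no block was used. Within a surgery, same-numbered libraries of different populations, which may share a mouse, had correlations of -0.075 to 0.167. Of these 57 pairs 2 were over 0.1, against 0 of 184 pairs with different numbers. The sham and interaction fits took such libraries as independent.

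Named genes were the 9 members, other laminin chains (some results are not reported here), the 2 largest changes past the threshold in each comparison within lists of 21 basement membrane proteins and 7 laminin receptors, and the 2 genes most correlated with each member. Further members of the lists are named only to complete a count of 5 or fewer or to compare with a chain, and were chosen after their values were seen. The members and lists were chosen with earlier results of these data known. Promoter sequences came from RefSeq, and gene positions were compared with GENCODE M21. Exons of Nid2, Lama2, Nid1 and Lama3 overlap a gene on the other strand, and strand marking is not given in the sources used here. The tools were R 4.3.3 and limma 3.58.1, and for all else Python 3.11.15, scipy 1.17.1, pandas 2.3.3, numpy 2.4.6 and matplotlib 3.10.9.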

Additional observations from a re-analysis of the deposited data

Results flagged for a closer look

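In 72 groups of 4 libraries and 1 gene each, 8 held a library that stood apart from the other 3 by Dixon's test on log2(FPKM + 1), where chance flags about 1 in 20 groups. Of these, 3 were stromal rUUO libraries, Lama1 at 5.16 FPKM in replicate 1, Lama4 at 12.86 FPKM in replicate 4 and Nid1 at 443.36 FPKM in replicate 6. Nid1 was at 950.33 FPKM in stromal UUO replicate 4, and Lamb2 at 65.67 FPKM in endothelial sham replicate 3. The other flags were of low levels, Lama2 at 1.28 FPKM in macrophage sham replicate 3 and at 0.48 FPKM in endothelial rUUO replicate 6, and Lama4 at 2.35 FPKM in macrophage UUO replicate 2.

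Changes from sham to UUO that differed between populations by the limma interaction are given as differences of log2 changes. Those of Lama2, of Lama4 against PT cells or macrophages and of Lama5 against macrophages rest on means under 1 FPKM in the population other than stromal, where the scale flattens change, and are given as values only. For PT minus macrophage they were 2.85 for Lamb2 (adjusted p = 0.00818) and 1.19 for Lamc1 (adjusted p = 0.0341), and for PT minus endothelial 3.09 for Lamb2 (adjusted p = 0.00674). For PT minus stromal they were -1.14 for Lama2, -2.68 for Lama4, 2.97 for Lama5, 2.22 for Lamb2 and -1.10 for Nid1, with adjusted p from 8.5e-05 to 0.0369 for Lama5, Lamb2 and Nid1. For macrophage minus stromal they were -1.29 for Lama2, -2.47 for Lama4, 2.48 for Lama5, -2.01 for Lamc1 and -1.36 for Nid1, with adjusted p = 0.000144 for Lamc1 and 0.0126 for Nid1. For endothelial minus stromal they were -1.39 for Lama2, -1.78 for Lama4, 2.05 for Lama5 and -1.46 for Lamc1, with adjusted p from 0.00454 to 0.0115 for Lama4, Lama5 and Lamc1. From UUO to rUUO the Lama5 changes differed by -2.16 for PT minus stromal (adjusted p = 0.0154) and by -2.35 for macrophage minus stromal (adjusted p = 0.0264). With a pseudocount of 0.1 the 3 differences of Lama2, that of Lama4 for endothelial minus stromal and those of Nid1 for PT and macrophage minus stromal were lost, with adjusted p from 0.0551 to 0.397. Quantile normalization ended those of Lamb2 and Lamc1 for PT minus macrophage (adjusted p = 0.0574 and 0.317) and of Nid1 for macrophage minus stromal (adjusted p = 0.156). The Lamc1 difference was also lost without mitochondrial genes (adjusted p = 0.0981) and in 8 of 44 fits that left out a library.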

How the results depend on the processing

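In stromal cells Lama2, Lama4 and Lamc1 kept their calls for UUO and rUUO against sham, and Nid1 and Lama5 theirs for UUO against sham, under every alternative run. Members passing in PT UUO against sham went from 4 to 2 with no filter on low values and with quantile normalization, and 1 to 4 passed with a library left out. In PT rUUO against sham the single call went to 0 with no filter, with quantile normalization and with the replicate block, and to 0 to 1 with a library left out. In stromal rUUO against UUO the 3 calls went to 0 with no filter and with the replicate block, to 1 with quantile normalization, and to 0 to 3 with a library left out. The endothelial UUO against sham count was 0 to 1 with a library left out.

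Differences in change between populations for UUO against sham went from 17 to 11 with a pseudocount of 0.1, and those for rUUO against UUO from 2 to 1 with quantile normalization or without mitochondrial genes and to between 1 and 4 with a library left out. The comparisons passing for the Lama5 to Lama4 ratio were 0 to 3 with a library left out, since 3 against 4 libraries cannot fall below p = 0.0571 in the exact permutation test, and the differences kept their sign. With quantile normalization the sham difference of PT minus macrophage for Nid1 was 0.28 and that of PT minus endothelial for Lama3 was 0.60, and without mitochondrial genes they were 0.054 and 0.16, both reversed in sign. Endothelial minus stromal Lamb2 ranged from -0.19 to 0.31 with a library left out. The cause of these changes was not tested.

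The replicate block changed the surgery calls of 5 genes, with adjusted p = 0.0684 for Lamb2 in PT rUUO against sham, 0.0591 for Nid2 in stromal UUO against sham, and 0.0958, 0.138 and 0.147 for Lama4, Lama5 and Nid1 in stromal rUUO against UUO. It also ended the Lama5 difference of PT minus stromal for rUUO against UUO (adjusted p = 0.115) and brought in the sham difference of macrophage minus stromal for Lama3 (adjusted p = 0.0466), and the differences of PT minus stromal for Lamc1 in UUO against sham (adjusted p = 0.0230) and for Nid2 in rUUO against UUO (adjusted p = 0.0303), and it changed no other call of the 9 genes. The labels do not say whether a shared number means a shared mouse, and no surgery pair within stromal cells had a same-number correlation over 0.1.

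As a description, since its mean in stromal UUO was 0.28 FPKM, Lama3 in stromal UUO against sham passed with a pseudocount of 0.1, with no filter, without mitochondrial genes and in 1 fit of all populations, with changes of -0.93 to -1.99. That last fit also ended the calls of Nid2 in stromal UUO against sham and Nid1 in stromal rUUO against UUO, and brought in Lama3 in the latter comparison. With quantile normalization the PT changes of Lama3 from sham to UUO also differed from those of the other 3 populations, as they did from macrophages and endothelial cells without mitochondrial genes, and quantile normalization brought in Lamc1 for PT minus stromal too. Counts over all genes moved by more than 1.5 times in 11 of the 12 comparisons, all but stromal UUO against sham. In PT cells 3747 genes for UUO against sham became 2435 with quantile normalization, 437 for rUUO against UUO became 160 with the block, 203 with no filter, 265 with a pseudocount of 0.1 and 281 without mitochondrial genes, and 852 for rUUO against sham became 484 with no filter. In macrophages 665, 0 and 459 genes became 346, 0 and 115 with the block, 364, 1 and 303 with no filter, and 1018, 35 and 753 in 1 fit of all populations, and the 0 became 2 with TPM, with quantile normalization and without mitochondrial genes. In endothelial cells 265, 8 and 237 became 101, 0 and 68, then 127, 0 and 116, and 423, 67 and 452 under the same settings, and 8 became 4 with a pseudocount of 0.1. In stromal cells 585 for rUUO against UUO became 116 with the block, 200 with no filter, 360 with quantile normalization and 973 in 1 fit of all populations, and 2407 for rUUO against sham became 1574 with the block.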
